A study of Mus musculus with 40 samples.

Results

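Transcripts of 36 genes that mark macrophages or serve antigen presentation were followed in the mouse extensor digitorum longus (EDL), a muscle of the hindlimb made up mostly of fast fibers. The members were named genes, found by symbol among 22844 genes of the count table and the table of length-scaled levels (TPM), and each symbol matched 1 gene. They were grouped by role into 10 surface markers and receptors, 5 growth factor, chemokine and chemokine receptor genes, 6 complement and Fc receptor genes, 4 signalling and transcription genes, 7 lysosomal, phagocytic, oxidase and secreted proteins, and 4 genes of MHC class II antigen presentation. Of the 36, 32 reached 1 CPM (counts scaled to library size) in at least 5 of the 40 libraries and were tested in one fit with all 13543 genes that did so. Aif1, Trem2, Fcgr1 and Ccl2 stayed below that level and are given as values.

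There were 8 groups of 5 libraries, from mice at 3 or 9 months of age. CON mice carried the floxed Tsc1 alleles (Tsc1fl/fl, strain Tsc1tm1Djk/J) without the deletion, and TSCmKO mice of the same strain lacked Tsc1, an inhibitor of the kinase complex mTORC1, in skeletal muscle fibers. Each was injected intraperitoneally for 3 days with vehicle or with rapamycin, an mTORC1 inhibitor (+RM), at 4 mg/kg by the labels, and the dose in the study text was higher. The deletion was in the fiber, while RNA came from whole muscle, so that transcripts of macrophages and other cells were read together with those of the fibers. Rapamycin was given to the whole animal.

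Macrophages in muscle clear debris, present antigen and exchange signals with fibroblasts, satellite cells and nerve. Their survival depends on the growth factor Csf1 and its receptor Csf1r, and monocytes enter tissue through chemokines such as Ccl2, which is read by Ccr2. MHC class II molecules are assembled with the invariant chain Cd74, which the protease cathepsin S (Ctss) degrades so that antigen peptides can be loaded in the lysosomal pathway.

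Total counts ran from 8883870 to 35224669 per library. Tsc1 was 84.1 to 133.7 CPM in 3mCON and 51.3 to 122.2 CPM in 9mCON, against 26.5 to 30.7 CPM in 3mTSCmKO and 24.4 to 35.8 CPM in 9mTSCmKO, without overlap between the genotypes at either age. Age could not be fully told apart from insert size, since libraries from 3-month muscle had mean inserts of 175 to 239 nt and those from 9-month muscle of 223 to 308 nt. The labels do not say whether libraries of the 2 ages were prepared together. Libraries of a group also differed among themselves in these genes. 3mCON replicate 1 held the highest value of its group for 27 of the 32 members tested, 3mTSCmKO+RM replicate 3 for 24, 9mCON replicate 5 for 23 and 3mTSCmKO replicate 3 for 22, while 3mCON+RM replicate 2 held the lowest for 28, 3mTSCmKO+RM replicate 1 for 24, 3mCON replicate 4 and 9mCON replicate 4 for 21 each, 3mTSCmKO replicate 2 for 18, 9mTSCmKO replicate 4 and 9mTSCmKO+RM replicate 1 for 17 each, and 9mCON+RM replicate 5 for 16.

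Per length, the members spanned a wide range in 3mCON. The most abundant was Cd74 at 64.5 ± 21.96 TPM (SD, n = 5), followed by Lyz2, a lysozyme of myeloid cells, at 50.5 ± 21.9 TPM. The class II chains H2-Aa, H2-Ab1 and H2-Eb1 were at 38.4 ± 12.8, 27.96 ± 9.32 and 18.4 ± 5.87 TPM. The values of Cd74 and Lyz2, and those of Lyz2 and H2-Aa, overlapped between libraries, and their order within single libraries was not compared. C1qa, C1qb and C1qc, the chains of complement C1q, were at 10.2 ± 5.66, 10.3 ± 5.11 and 10.4 ± 5.61 TPM, with means closer together than their spread. The macrophage markers Csf1r and Adgre1 (F4/80) were lower, at 5.58 ± 3.13 and 1.70 ± 0.889 TPM, and Trem2, a lipid-sensing receptor, was lowest at 0.131 ± 0.138 TPM. Defining macrophage markers were present in control muscle at a level far below that of fast muscle fiber genes, whose list of 6 summed to 127651 to 140877 TPM in 3mCON.

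**Figure D1:**
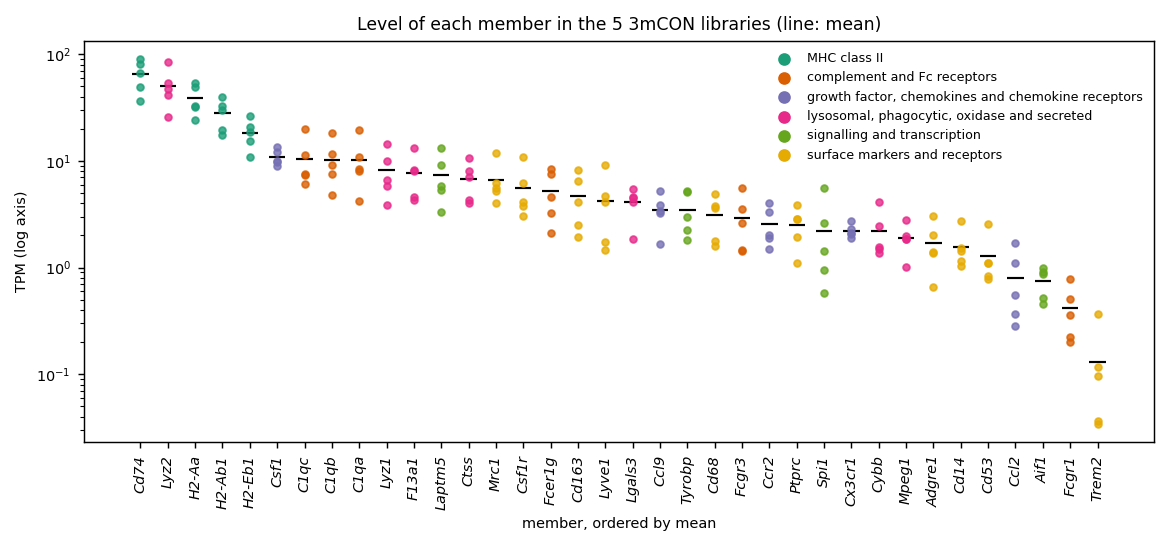
TPM on a log axis of each of the 36 members in the 5 3mCON libraries, ordered by mean and coloured by role. The points are libraries and the line is their mean. The 4 class II genes and Lyz2 lie highest and Trem2, Fcgr1, Aif1 and Ccl2 lowest.

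H2-Aa, H2-Ab1 and H2-Eb1 lie together on chromosome 17, and class II genes are known to be switched on through shared promoter elements that include a Y box. To show that element, RefSeq promoters of build GRCm38.p6 were searched in the 250 bases before the start site, on both strands, for the Y box letters CTGATTGG. The table held 26 of the 36 members. H2-Aa and H2-Eb1 were the only members with a match, while 3.83% of 32851 promoters held one. In the lines below, capitals mark the match and the windows are the 150 bases before the start site, at chr17:34287824-34287973 on the minus strand for H2-Aa and chr17:34305717-34305866 on the plus strand for H2-Eb1.
H2-Aa: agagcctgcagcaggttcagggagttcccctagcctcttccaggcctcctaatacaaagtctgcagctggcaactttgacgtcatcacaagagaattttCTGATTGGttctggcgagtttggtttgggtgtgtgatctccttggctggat
H2-Eb1: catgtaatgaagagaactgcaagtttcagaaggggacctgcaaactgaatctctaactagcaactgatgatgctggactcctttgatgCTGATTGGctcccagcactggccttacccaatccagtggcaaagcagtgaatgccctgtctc
The match began 51 bases before the start in H2-Aa and 62 bases before it in H2-Eb1, and both genes carried it in the same orientation. The letters GAGGAAGT, a binding motif of the myeloid factor PU.1 that Spi1 encodes, were found in 1 member, C1qc, and in 2.44% of all promoters. These are descriptions of sequence, and no binding was measured.

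The largest number of members changed after rapamycin in 9-month control muscle. In 9mCON+RM against 9mCON, 23 of the 32 members fell and none rose, against 6.82% of all genes tested that were lower and 5.03% that were higher. Their median log2 fold change was -1.41, where that of all genes was -0.02. The members that fell included all 4 class II genes, all 5 complement and Fc receptor genes tested, 6 of 9 surface markers, 5 of 7 lysosomal, phagocytic, oxidase and secreted genes, 2 of 3 signalling and transcription genes and 1 of 4 chemokine-related genes. As in every comparison below, whole-muscle RNA cannot tell a change in macrophage number from a change in RNA of these genes per macrophage. Nor can it tell either from a change in their RNA in other cells, which were read together with macrophages. The values in 9mCON and 9mCON+RM did not overlap for 14 of the 32 members, all lower, and 3.74% of all genes had such a gap in that direction.

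Adgre1 (ENSMUSG00000004730, protein-coding, GRCm38 chromosome 17, 57358691 to 57483527) fell most. Its 5 libraries read 1.89, 2.34, 1.62, 0.983 and 6.30 CPM in 9mCON and 0.473, 0.309, 0.796, 0.516 and 0.202 CPM in 9mCON+RM (log2 fold change -2.55, SE 0.56, adjusted p = 0.0023), or 3 to 11 counts in each treated library. No treated library reached the lowest vehicle library. Csf1r, the receptor for Csf1, read 14.1, 7.85, 9.58, 8.52 and 27.3 CPM in 9mCON and 4.12, 2.42, 5.79, 4.30 and 0.742 CPM after rapamycin (log2 fold change -1.98, SE 0.41, adjusted p = 0.0013), again without overlap, and replicate 5 was the highest of the vehicle group and the lowest of the treated group. Mrc1, the mannose receptor CD206, went from 12.9, 10.8, 12.1, 8.68 and 30.7 CPM to 4.80, 5.04, 6.87, 5.24 and 3.31 CPM (log2 fold change -1.58, SE 0.34, adjusted p = 0.0021), with no overlap either. Cd163, the haemoglobin scavenger receptor, was 11.9 ± 8.73 CPM in 9mCON and 3.69 ± 2.22 CPM after rapamycin (log2 fold change -1.73, SE 0.44, adjusted p = 0.0072). Lyve1, a hyaluronan receptor shared with lymphatic endothelium, read 13.1, 5.36, 8.61, 4.31 and 9.71 CPM and 2.70, 1.59, 4.41, 6.79 and 1.28 CPM in the same order, overlapped between the groups and missed the threshold (log2 fold change -1.33, SE 0.47, adjusted p = 0.057). Ptprc, the pan-leukocyte phosphatase CD45, and Cd53, a leukocyte tetraspanin, fell by 1.36 and 2.06 on the log2 scale. Cd68, a lysosomal glycoprotein, read 1.89, 1.58, 1.38, 1.15 and 3.51 CPM and 1.28, 0.514, 2.68, 0.860 and 0.742 CPM and did not pass (log2 fold change -0.69, SE 0.48, adjusted p = 0.41). Cd14, a co-receptor for lipopolysaccharide, missed the threshold as well (log2 fold change -0.70, SE 0.46, adjusted p = 0.37).

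Among complement and Fc receptor genes, C1qa read 6.97, 5.81, 4.95, 3.55 and 9.40 CPM in 9mCON and 2.30, 0.823, 3.18, 3.01 and 0.405 CPM in 9mCON+RM (log2 fold change -1.70, SE 0.42, adjusted p = 0.0064). The treated libraries all lay below the vehicle ones. C1qb and C1qc fell by 1.88 and 2.18 on the log2 scale, Fcgr3, a low-affinity IgG receptor, by 1.88, and Fcer1g, the common Fc receptor gamma chain, by 1.59. For Fcgr3, 14.3% of its 31-base words occur in transcripts of other listed genes, mostly Fcgr2b, and the authors split such reads evenly. Fcgr1, the high-affinity IgG receptor, lay below the level for testing and had 1 to 3 counts in each 9mCON+RM library and 1 to 10 in 9mCON, and did not pass with no filter on low counts (adjusted p = 0.34).

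All 4 class II members fell in 9mCON+RM. H2-Aa, an alpha chain, read 24.2, 15.1, 11.8, 11.7 and 26.9 CPM in 9mCON and 7.63, 3.80, 10.7, 8.68 and 2.16 CPM after rapamycin (log2 fold change -1.46, SE 0.35, adjusted p = 0.0052), without overlap. Cd74 read 55.98, 36.4, 29.9, 27.3 and 73.6 CPM and 23.6, 9.36, 30.03, 22.5 and 4.12 CPM (log2 fold change -1.33, SE 0.37, adjusted p = 0.015), and the highest treated library, at 30.0 CPM, lay above 2 of the vehicle libraries. The beta chains H2-Ab1 and H2-Eb1, the second of which shares the Y box shown for H2-Aa, fell by 1.19 and 1.25 on the log2 scale. With only the groups compared in the fit, 16 members passed in place of 23, and Cd74 (adjusted p = 0.11), H2-Ab1 (adjusted p = 0.097) and H2-Eb1 (adjusted p = 0.092) were among the 7 that did not. H2-Aa kept its call in that fit (adjusted p = 0.047) and when each library was left out in turn, while Cd74, H2-Ab1 and H2-Eb1 lost theirs without 2, 1 and 3 of the 10 libraries, each left out alone. Of the other 11 class II pathway genes tested, 3 fell and 1 rose. The class II transactivator Ciita was lower (log2 fold change -1.42, SE 0.39, adjusted p = 0.014), as were the peptide-loading chains H2-DMb1 (-2.19, SE 0.44, adjusted p = 0.00097) and H2-DMa (-0.91, SE 0.29, adjusted p = 0.038). Ifi30, a lysosomal thiol reductase, was higher (1.14, SE 0.34, adjusted p = 0.024).

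The lysozymes Lyz1 and Lyz2 fell by 1.74 and 1.48 on the log2 scale. Of the 31-base words of Lyz1, 34.2% occur in other listed genes, chiefly Lyz2, and 32.8% of those of Lyz2, chiefly in Lyz1, so their separate values are uncertain. Ctss fell by 1.71, Mpeg1, which encodes the pore-forming protein perforin-2, by 1.32, and Cybb, the catalytic chain of the phagocyte NADPH oxidase, by 1.33. Mpeg1 and Cybb lost their calls without 5 and 3 of the 10 libraries, each left out alone. With only the groups compared in the edgeR fit, neither passed (adjusted p = 0.11 and 0.060). The adaptor Tyrobp (DAP12) fell by 1.63 and the lysosomal membrane protein gene Laptm5 by 1.59. Spi1, the PU.1 gene, did not pass (log2 fold change -1.14, SE 0.46, adjusted p = 0.1), nor did F13a1, a transglutaminase chain of resident macrophages (log2 fold change -0.73, SE 0.31, adjusted p = 0.13). Aif1 (Iba1), below the level for testing, had 0 or 1 count in each 9mCON+RM library against 1 to 9 in 9mCON, and was lower with no filter on low counts (adjusted p = 0.0066).

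Of the ligand and chemokine genes, Ccr2 alone passed. Csf1 read 13.4, 12.6, 10.8, 11.7 and 17.1 CPM in 9mCON and 11.1, 9.15, 9.99, 8.85 and 6.82 CPM in 9mCON+RM (log2 fold change -0.52, SE 0.19, adjusted p = 0.072) and missed the threshold, with 1 treated library above the lowest vehicle library. Ccr2, the receptor for Ccl2, fell by 1.13 on the log2 scale. Ccl9, a chemokine of myeloid cells, did not pass (log2 fold change -0.77, SE 0.31, adjusted p = 0.099). Ccl2 was counted 5 to 11 times in each 9mCON library and read 0.203, 0.154, 0.289, 0.0860 and 0.0675 CPM in 9mCON+RM, or 1 to 4 counts, and Trem2 read 0.0675, 0, 0.0724, 0.172 and 0.202 CPM there, or 0 to 3 counts. Cx3cr1, the fractalkine receptor, and Lgals3, the beta-galactoside-binding lectin galectin-3, were the 2 members with fold changes above 0 (0.13 and 0.52 on the log2 scale), and neither passed.

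**Figure D2:**
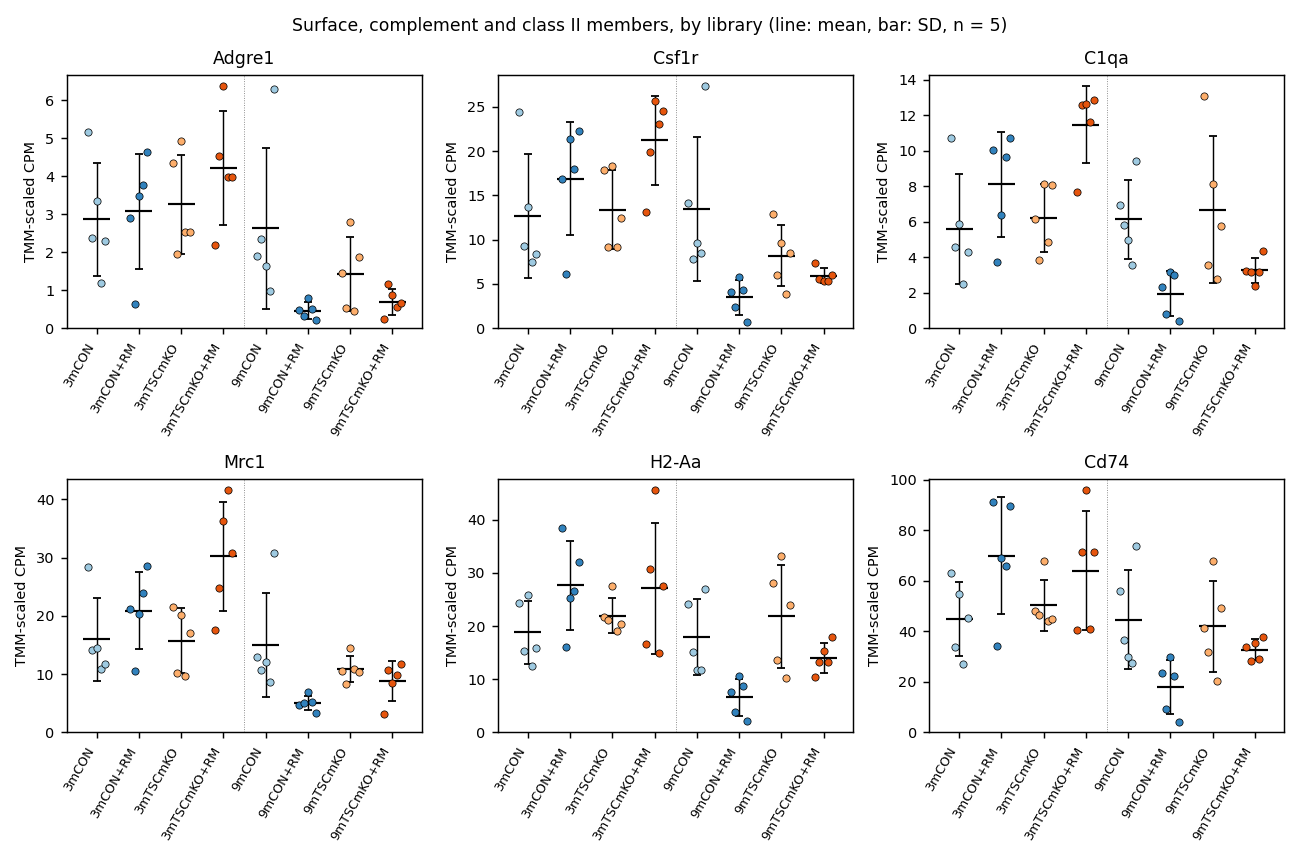
TMM-scaled CPM of Adgre1, Csf1r, C1qa, Mrc1, H2-Aa and Cd74 in every library of the 8 groups. Points are libraries, the line is the mean and the bar the SD (n = 5). The 9mCON+RM libraries lie below those of 9mCON for all but Cd74, for which they overlap.

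Genes of other cells moved in the same comparison. All 5 fibroblast markers (Pdgfra, Dcn, Lum, Col1a1 and Pi16) were lower, and their summed level was 546 to 1027 TPM in 9mCON and 89.0 to 427 TPM in 9mCON+RM. The same held for all 5 tendon markers, at 52.5 to 374 TPM in 9mCON and 17.0 to 41.3 TPM in 9mCON+RM. Of mast cell markers 2 of 5 were lower, of dendritic cell markers 1 of 3, and 1 of 6 fast fiber markers was higher. None of the 5 endothelial or 3 satellite cell markers tested passed, and endothelial sums overlapped (93.3 to 180 and 105 to 203 TPM). None of these markers was at 0 throughout a group. The part of these cells in the fall of the macrophage genes was not tested. Of 33 other myeloid genes tested, 20 fell and none rose, among them Siglec1 (log2 fold change -3.16, SE 0.70, adjusted p = 0.0022), Folr2 (-2.93, SE 0.59, adjusted p = 0.00097) and the chemokine gene Pf4 (-2.74, SE 0.57, adjusted p = 0.0013). Siglec1 and Folr2 mark resident macrophages.

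The number of members that passed depended on which libraries were in the fit. It was 17 without 9mCON replicate 1 or without 9mCON+RM replicate 2, 19 without 9mCON replicate 5 and 21 without 9mCON+RM replicate 5. In 9mCON replicate 1 erythroid markers summed to 21122 TPM, against 1070 to 3105 TPM in the other libraries of that group. Its B cell markers summed to 7.33 TPM, against 0.340 to 3.72 TPM. The part of these cells in its values was not tested. With replicate 5 of both groups left out, a choice made after seeing the data, 9 of the 32 fell (Csf1r, Tyrobp, C1qc, C1qb, Cd53, Fcer1g, Fcgr3, Lyz1 and Lyz2), 31 of the 32 fold changes were below 0, and the median was -1.03. Adgre1 was then -1.70 (adjusted p = 0.065) and H2-Aa -1.03 (adjusted p = 0.068).

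**Figure D3:**
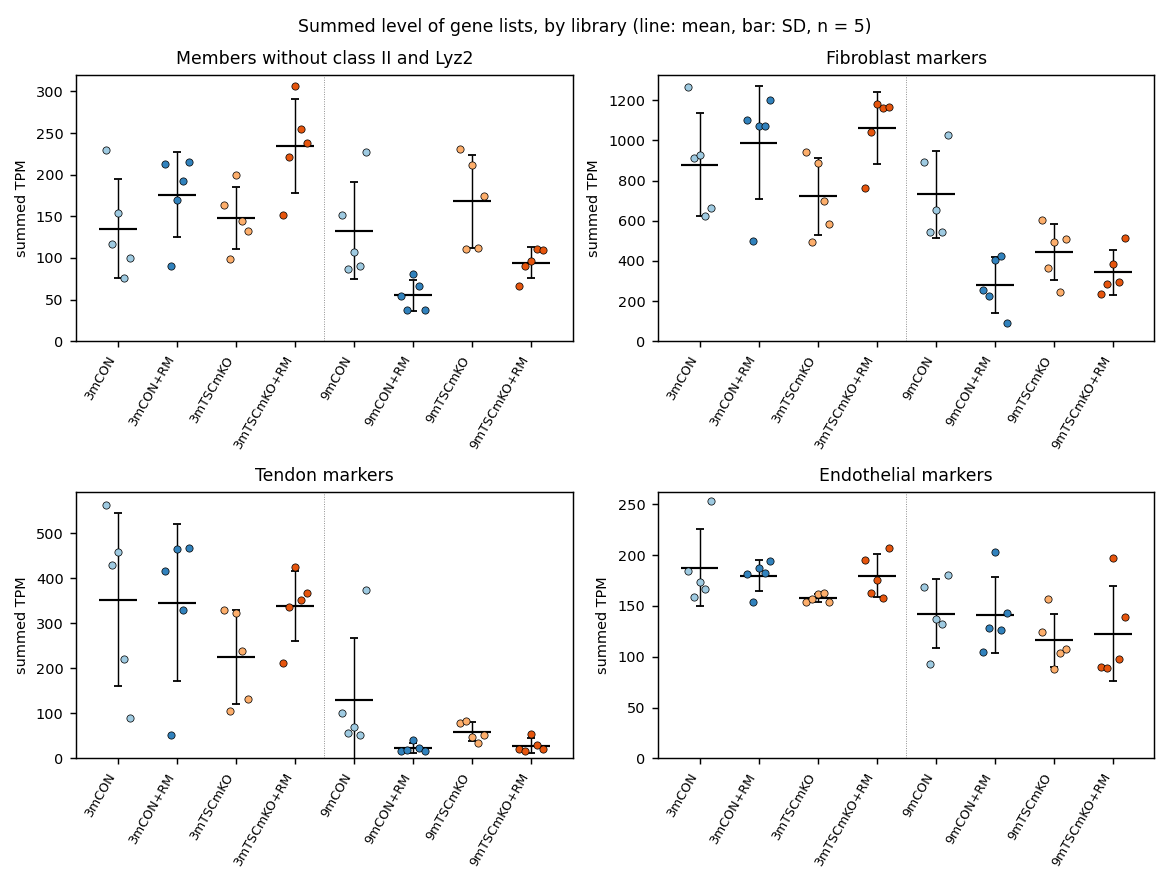
Summed TPM per library of the 31 members other than class II genes and Lyz2, and of 5 fibroblast, 5 tendon and 5 endothelial markers. Points are libraries, the line is the mean and the bar the SD (n = 5), which is cut off at 0 for tendon markers in 9mCON. The first 3 sums are lower in each 9mCON+RM library than in any 9mCON library, and the endothelial sums overlap.

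No member fell with the same treatment at 3 months. In 3mCON+RM against 3mCON, none of the 32 members passed, where 0.362% of all genes were higher and 0.318% lower. Fold changes were above 0 for 30 of the 32, with a median of 0.38. Adgre1 read 5.15, 2.37, 3.35, 1.19 and 2.28 CPM in 3mCON and 2.89, 0.624, 3.48, 3.76 and 4.63 CPM in 3mCON+RM, and Csf1r 24.4, 9.28, 13.7, 7.44 and 8.36 CPM and 16.8, 6.17, 21.4, 17.9 and 22.3 CPM in the same order. Both pairs of groups overlapped widely (log2 fold change 0.13, SE 0.45, adjusted p = 0.99 for Adgre1 and log2 fold change 0.41, SE 0.37, adjusted p = 0.87 for Csf1r). At an unadjusted p below 0.05, 3 members were higher in edgeR, and DESeq2 called none. The 2 ages could be set against each other as a difference of differences, in a comparison added after the levels were seen. In CON mice 13 of the 32 members had a lower response at 9 than at 3 months, against 0.879% of all genes with a lower and 0.0591% with a higher response. The 13 were Cd163, Mrc1, Csf1r, Cd53, C1qa, C1qb, C1qc, Fcgr3, Lyz1, Lyz2, H2-Aa, H2-Ab1 and H2-Eb1. Cd53 differed most (-3.10, SE 0.67, adjusted p = 0.017). Its libraries read 2.35, 1.001, 0.991, 0.774 and 0.760 CPM in 3mCON, 3.14, 2.01, 3.15, 1.65 and 2.44 CPM in 3mCON+RM, 2.24, 1.28, 1.62, 1.42 and 1.81 CPM in 9mCON and 0.608, 0.103, 0.579, 0.516 and 0.270 CPM in 9mCON+RM. Without 9mCON replicate 5, 3 members passed, and without both replicate 5 libraries none did, although 30 of the 32 differences stayed below 0, with a median of -1.42. In the same test 2 of 5 fibroblast markers and 1 of 5 mast cell markers had a lower response at 9 months, no tendon marker passed, and median differences were -1.57 for fibroblast, -2.28 for mast cell and -2.64 for tendon markers. The part of these cells in the values of the macrophage genes was not tested. A shift shared by the vehicle and rapamycin libraries of an age drops out of this difference, but one that acted on only 1 of them would not. With insert size as a term, H2-Ab1 and H2-Eb1 of the 13 lost their calls.

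At 9 months, fewer members passed for loss of Tsc1, at shares no larger than those of all genes. In 9mTSCmKO against 9mCON, 6 of the 32 (18.75%) rose and 2 (6.25%) fell, and 19.1% of all genes tested were higher and 18.9% lower. The median log2 fold change of the members was 0.03 and that of all genes -0.02. The members that rose were Lgals3, Cd68, Cx3cr1, Mpeg1, Ctss and Ccr2, and those that fell were Cd163 and Csf1. Neither Cd163 nor Csf1 passed without 9mCON replicate 5. None of the class II, complement, Fc receptor, or signalling and transcription genes passed. In 2 of the 32 members all 9mTSCmKO libraries lay above all 9mCON ones, and 8.77% of all genes had such a gap in that direction.

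Lgals3 (ENSMUSG00000050335, protein-coding, GRCm38 chromosome 14, 47367751 to 47386160) rose most. It read 6.38, 4.07, 3.74, 3.55 and 4.70 CPM in 9mCON and 26.7, 13.9, 24.2, 12.5 and 19.6 CPM in 9mTSCmKO (log2 fold change 2.11, SE 0.25, adjusted p = 8.2e-09), so that the lowest mutant library was 12.5 CPM against 6.38 CPM in the highest control. Cd68 (ENSMUSG00000018774, protein-coding, GRCm38 chromosome 11, 69664213 to 69666153) read 1.89, 1.58, 1.38, 1.15 and 3.51 CPM in 9mCON and 6.71, 4.41, 10.9, 6.58 and 5.07 CPM in 9mTSCmKO (log2 fold change 1.80, SE 0.42, adjusted p = 0.00093), also without overlap. Cx3cr1 was 8.74, 2.79, 5.77, 3.98 and 2.48 CPM in 9mCON and 30.8, 6.94, 7.54, 6.64 and 8.84 CPM in 9mTSCmKO (log2 fold change 1.36, SE 0.33, adjusted p = 0.0013). Replicate 1 of 9mTSCmKO was far above the others, and without it the fold change was 0.67 (adjusted p = 0.043). In that library dendritic cell markers summed to 18.1 TPM, against 7.28 to 8.22 TPM in the other 4, and T and NK cell markers to 7.73 TPM, against 3.52 to 4.62 TPM, and their part in its values was not tested. Mpeg1 was 2.80 ± 1.37 CPM and 6.63 ± 2.56 CPM in the same order (log2 fold change 1.23, SE 0.34, adjusted p = 0.0043). Ctss overlapped between the groups (log2 fold change 1.11, SE 0.37, adjusted p = 0.016), and without 9mTSCmKO replicate 1 its adjusted p was 0.083. Ccr2 read 5.37, 3.32, 1.87, 3.28 and 4.13 CPM in 9mCON and 9.68, 4.47, 8.66, 4.62 and 7.31 CPM in 9mTSCmKO (log2 fold change 0.94, SE 0.28, adjusted p = 0.0071), with 2 of the mutant libraries below the highest control.

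Among the 9 surface markers tested, Cd68 alone rose and Cd163 alone fell. Cd163 read 8.86, 4.75, 8.37, 10.5 and 27.1 CPM in 9mCON, of which replicate 5 was far above the rest, and 5.46, 5.82, 6.09, 4.79 and 6.34 CPM in 9mTSCmKO (log2 fold change -1.07, SE 0.41, adjusted p = 0.038). Without 9mCON replicate 5 the fold change was -0.49 (adjusted p = 0.36). Adgre1, with 1.46, 0.530, 2.79, 0.462 and 1.88 CPM in 9mTSCmKO, did not pass (log2 fold change -0.89, SE 0.47, adjusted p = 0.13). Csf1r, at 12.95, 6.001, 9.61, 3.87 and 8.49 CPM (log2 fold change -0.73, SE 0.38, adjusted p = 0.13), and Mrc1, at 10.6, 8.24, 14.5, 10.9 and 10.4 CPM (log2 fold change -0.47, SE 0.32, adjusted p = 0.26), missed the threshold as well. Lyve1 read 13.8, 3.12, 4.36, 4.33 and 3.24 CPM (log2 fold change -0.51, SE 0.44, adjusted p = 0.38). Csf1, the ligand of Csf1r, read 10.1, 4.77, 12.2, 5.77 and 9.41 CPM in 9mTSCmKO (log2 fold change -0.63, SE 0.19, adjusted p = 0.0084), and without 9mCON replicate 5 its adjusted p was 0.053. C1qa, at 13.1, 3.59, 8.15, 2.77 and 5.77 CPM (log2 fold change 0.12, SE 0.38, adjusted p = 0.83), H2-Aa, at 28.1, 13.7, 33.2, 10.2 and 23.9 CPM (log2 fold change 0.28, SE 0.33, adjusted p = 0.54), and Cd74, at 41.2, 31.7, 67.6, 20.3 and 49.3 CPM (log2 fold change -0.09, SE 0.35, adjusted p = 0.87), overlapped with control throughout.

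The 4 members below the level for testing all had their highest group mean in 9mTSCmKO. Trem2 read 0.295, 0.226, 0.487, 0.328 and 0.310 CPM in 9mCON and 1.46, 0.412, 1.17, 0.693 and 0.962 CPM in 9mTSCmKO, or 3 to 6 and 7 to 28 counts. With no filter on low counts its log2 fold change was 1.49 (SE 0.49, adjusted p = 0.021). Fcgr1 read 0.591, 0.302, 0.244, 0.0546 and 0.516 CPM in 9mCON and 3.23, 0.530, 4.08, 0.346 and 0.394 CPM in 9mTSCmKO, so that its higher mean came from replicates 1 and 3 (log2 fold change 2.26, SE 0.53, adjusted p = 0.0013 with no filter). Ccl2 read 0.650, 0.453, 0.406, 0.382 and 0.465 CPM and 0.0520, 0.177, 2.07, 0.346 and 0.962 CPM in the same order, and 2 of the 5 mutant libraries held 22 or more counts. Aif1 was at 3 to 16 counts per library in 9mTSCmKO. Neither Ccl2 (adjusted p = 0.49) nor Aif1 (adjusted p = 0.30) passed with no filter.

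**Figure D4:**
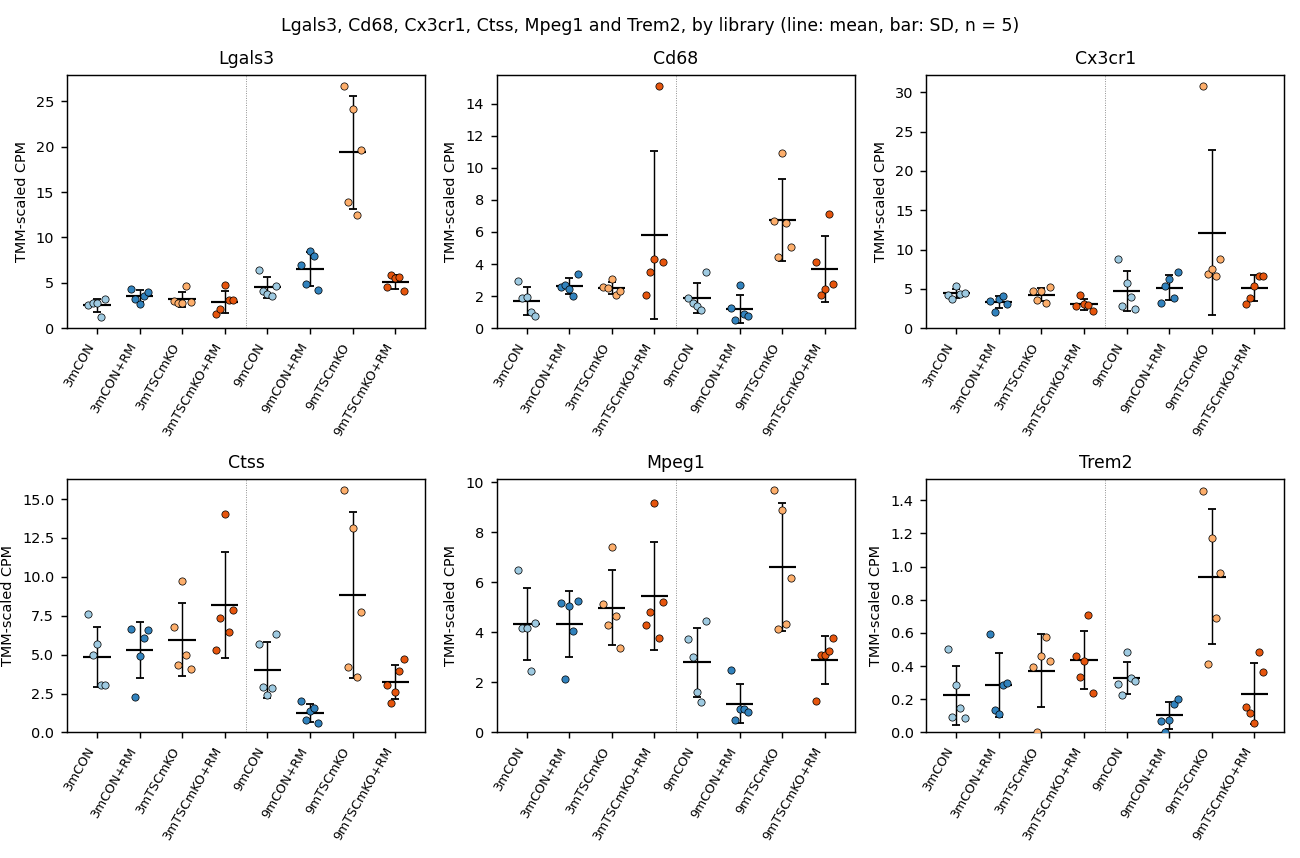
TMM-scaled CPM of Lgals3, Cd68, Cx3cr1, Ctss, Mpeg1 and Trem2 in every library of the 8 groups. Points are libraries, the line is the mean and the bar the SD (n = 5). All 5 9mTSCmKO libraries lie above 9mCON for Lgals3 and Cd68, and 1 9mTSCmKO library stands apart for Cx3cr1.

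Other myeloid genes moved in both directions. Of 33 tested, 9 rose and 6 fell in 9mTSCmKO. The lysosomal glycoprotein gene Gpnmb rose most (log2 fold change 3.29, SE 0.31, adjusted p = 9.0e-11), and Spp1 (osteopontin; 1.56, SE 0.50, adjusted p = 0.014), Ctsd (0.81, SE 0.12, adjusted p = 1.6e-06) and Ctsb (0.79, SE 0.11, adjusted p = 1.4e-07) also rose. Cathepsins and Gpnmb are made by other cells too. Folr2, a marker of resident macrophages, fell (-1.77, SE 0.50, adjusted p = 0.005), as did Maf (-1.44, SE 0.15, adjusted p = 7.8e-10), Clec10a (-1.15, SE 0.38, adjusted p = 0.017) and Stab1 (-0.88, SE 0.19, adjusted p = 0.00033). Of 5 fibroblast markers 3 were lower, as were 4 of 5 tendon, 4 of 5 mast cell, 3 of 5 endothelial, 4 of 6 fast fiber, 2 of 4 adipocyte and 1 of 4 Schwann cell markers. Leukocyte markers went both ways, as Cd3d (the 1 T and NK cell marker tested), 1 of 3 neutrophil markers (Cxcr2) and 1 of 3 dendritic cell markers (Xcr1) were higher and another dendritic cell marker (Zbtb46) was lower. Summed levels in 9mCON and 9mTSCmKO were 546 to 1027 and 244 to 605 TPM for fibroblast markers, and 52.5 to 374 and 35.4 to 83.3 TPM for tendon markers. Fast fiber markers summed to 132247 to 144947 TPM in 9mCON and 97288 to 119032 TPM in 9mTSCmKO, without overlap. The part of these cells in the values of the macrophage genes was not tested.

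No member passed for genotype at 3 months or for age in control muscle. In 3mTSCmKO against 3mCON no member passed, while 11.4% of all genes were higher and 8.32% lower, and member fold changes ran from -0.21 to 0.96 on the log2 scale. At an unadjusted p below 0.05, 1 member was higher in edgeR, and DESeq2 called none. Of 33 other myeloid genes tested, 5 were higher and 1 lower. Higher as well were 1 of 11 other class II pathway genes, 1 of 10 other monocyte chemokine and growth factor genes, 2 of 3 neutrophil and 2 of 3 B cell markers. In 3mCON and 3mTSCmKO, other myeloid genes summed to 986 to 1179 and 1419 to 1825 TPM. Other class II pathway genes summed to 213 to 266 and 315 to 477 TPM. Between 9mCON and 3mCON no member passed either, with 0.679% of all genes higher and 0.340% lower. At an unadjusted p below 0.05, edgeR had 1 higher and 1 lower, and DESeq2 called 1 after adjustment. Lgals3 was nearest, at 2.58, 2.73, 2.81, 1.25 and 3.21 CPM in 3mCON (log2 fold change 0.88, SE 0.26, adjusted p = 0.074), below every 9mCON library. In TSCmKO muscle 3 members were higher at 9 than at 3 months and 2 were lower, with 19.1% of all genes higher and 18.3% lower. Lgals3 read 3.03, 2.74, 2.78, 4.67 and 2.84 CPM in 3mTSCmKO (log2 fold change 2.58, SE 0.25, adjusted p = 6.8e-10), and Cx3cr1 (log2 fold change 1.51, SE 0.33, adjusted p = 0.00053) and Cd68 (log2 fold change 1.44, SE 0.41, adjusted p = 0.0058) were the others. Without 9mTSCmKO replicate 1 the fold change of Cx3cr1 was 0.83 (adjusted p = 0.014). Cd68 read 2.91, 1.91, 1.94, 0.982 and 0.760 CPM in 3mCON and 2.57, 2.48, 3.08, 2.05 and 2.30 CPM in 3mTSCmKO. Adgre1 was lower, with 4.35, 1.96, 4.93, 2.53 and 2.52 CPM in 3mTSCmKO (log2 fold change -1.17, SE 0.46, adjusted p = 0.044), and so was Csf1, with 14.8, 12.7, 14.1, 9.85 and 12.02 CPM (log2 fold change -0.57, SE 0.19, adjusted p = 0.016). Adgre1 and Csf1 lost their calls without 5 and 2 of the 10 libraries, each left out alone. Markers of other cells moved both ways in the same comparison. Lower at 9 months were 5 of 5 tendon, 4 of 4 adipocyte, 4 of 5 endothelial, 4 of 5 erythroid, 3 of 5 mast cell, 3 of 3 B cell, 3 of 6 fast fiber, 2 of 5 fibroblast and 2 of 3 neutrophil markers. Among those higher were Cd3d (the 1 T and NK cell marker tested), 1 of 3 dendritic cell (Xcr1) and 1 of 3 neutrophil markers (Cxcr2). In 3mTSCmKO replicate 3 the erythroid markers summed to 28731 TPM, against 1383 to 2847 TPM in the other 4 libraries of that group. The part of these cells in the values of the macrophage genes was not tested. With insert size as a term, in a fit without 9mTSCmKO+RM replicate 5 whose label gives none, 1 member passed, Lgals3. The genotype effect differed between ages for Lgals3 alone (log2 fold change 1.70, SE 0.36, adjusted p = 0.0034), and 3.01% of all genes had a more positive and 1.93% a more negative genotype effect at 9 months.

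After rapamycin in 9-month TSCmKO muscle, 6 of the 32 members fell and none rose, with 16.8% of all genes lower and 15.8% higher. The median log2 fold change was -0.59, against -0.04 for all genes, and 30 of the 32 were below 0. Lgals3 read 4.54, 5.88, 5.49, 5.65 and 4.09 CPM in 9mTSCmKO+RM, compared with the 12.5 to 26.7 CPM of 9mTSCmKO (log2 fold change -1.92, SE 0.24, adjusted p = 1.3e-07). The treated values lay within the range of 9mCON. Ctss fell to 3.24 ± 1.10 CPM from 8.84 ± 5.34 CPM (log2 fold change -1.45, SE 0.38, adjusted p = 0.003). Cx3cr1 fell (log2 fold change -1.24, SE 0.33, adjusted p = 0.0036), but not without 9mTSCmKO replicate 1 (-0.55, adjusted p = 0.11). Mpeg1 fell without overlap between the groups (log2 fold change -1.18, SE 0.34, adjusted p = 0.007). C1qa read 3.21, 3.17, 2.39, 3.17 and 4.33 CPM (log2 fold change -1.04, SE 0.39, adjusted p = 0.04), and C1qb also fell (log2 fold change -1.01, SE 0.36, adjusted p = 0.028). Without 9mTSCmKO replicate 1 neither passed (C1qa -0.65, adjusted p = 0.23, and C1qb -0.78, adjusted p = 0.11). Both comparisons with 9mTSCmKO use the same 5 libraries, so the rise of Lgals3, Ctss, Cx3cr1 and Mpeg1 with genotype and their fall with rapamycin are not independent.

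The other members missed the threshold in 9mTSCmKO+RM. Cd68 read 4.15, 2.07, 2.45, 7.10 and 2.74 CPM (log2 fold change -0.88, SE 0.40, adjusted p = 0.092), and overlapped with vehicle. Adgre1 was 0.235, 1.15, 0.870, 0.551 and 0.671 CPM (log2 fold change -0.999, SE 0.53, adjusted p = 0.15), Csf1r 7.35, 5.59, 5.38, 5.31 and 5.98 CPM (log2 fold change -0.47, SE 0.39, adjusted p = 0.37) and Mrc1 3.21, 10.8, 8.48, 9.93 and 11.8 CPM (log2 fold change -0.30, SE 0.33, adjusted p = 0.51). The class II genes had log2 fold changes from -0.63 to -0.36, H2-Aa at 10.5, 13.3, 15.3, 13.2 and 17.99 CPM (log2 fold change -0.63, SE 0.33, adjusted p = 0.15) and Cd74 at 33.96, 28.2, 35.3, 28.9 and 37.7 CPM. Lyve1 read 1.80, 3.86, 2.94, 4.27 and 5.85 CPM and Csf1 6.34, 8.76, 12.2, 8.75 and 10.7 CPM, both overlapping with vehicle. Trem2 read 0.156, 0.115, 0.0544, 0.483 and 0.366 CPM, or 1 to 7 counts (log2 fold change -1.98, SE 0.52, adjusted p = 0.0044 with no filter). Fcgr1, at 2 to 7 counts, was also lower with no filter (log2 fold change -2.28, SE 0.54, adjusted p = 0.0016), but only replicates 1, 2 and 3 of 9mTSCmKO lay above all treated libraries, with replicates 1 and 3 far above. Ccl2 read 0.704, 1.04, 0.381, 0.827 and 0.183 CPM. Of 33 other myeloid genes, 13 fell, with Spp1 (-3.34, SE 0.57, adjusted p = 2.5e-05) and Gpnmb (-2.16, SE 0.29, adjusted p = 4.8e-07) the largest, and Maf rose (0.57, SE 0.15, adjusted p = 0.003). Of fibroblast markers none passed, and 1 of 5 tendon, 1 of 3 neutrophil (Cxcr2), 1 of 3 dendritic cell (Xcr1) and 1 of 5 endothelial markers (Kdr) fell, while another endothelial marker (Tek) and 1 of 3 satellite cell markers (Pax7) rose. Of fast fiber markers 3 of 6 rose, and their sum was 127497 to 148653 TPM in 9mTSCmKO+RM, above every 9mTSCmKO library. The part of these cells in the values of the macrophage genes was not tested.

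The response of Lgals3 to rapamycin at 9 months differed between genotypes (log2 fold change -2.44, SE 0.35, adjusted p = 9.2e-05), as 9mCON+RM read 6.96, 4.88, 8.47, 7.91 and 4.25 CPM, at or above most of 9mCON. It was the only member to pass that test, with 2.31% of all genes more negative and 2.56% more positive in TSCmKO. The fall of Adgre1, Csf1r, Mrc1 and H2-Aa in control muscle, and their smaller values in TSCmKO, did not pass as a difference between the genotypes (1.55 with adjusted p = 0.26, 1.51 with adjusted p = 0.11, 1.28 with adjusted p = 0.11 and 0.83 with adjusted p = 0.34 in that order, on the log2 scale). Between the treated groups, 9mTSCmKO+RM against 9mCON+RM, 12 members were higher, against 11.3% of all genes higher and 9.33% lower. Ccr2 led (log2 fold change 1.77, SE 0.31, adjusted p = 2.8e-05), at 1.76, 1.18, 1.66, 2.32 and 1.48 CPM in 9mCON+RM and 3.76, 6.34, 4.89, 7.44 and 5.92 CPM in 9mTSCmKO+RM, without overlap. Cd68 (1.61), Ctss (1.37), Mpeg1 (1.36), C1qc (1.26), Lyz1 (1.19), H2-Ab1 (1.17), H2-Eb1 (1.14), H2-Aa (1.11), Laptm5 (1.06), Cybb (1.04) and Ccl9 (0.82) followed, as log2 fold changes. Laptm5, Cybb and Ccl9 each lost the call without 8 of the 10 libraries, each left out alone. This comparison shares the 9mCON+RM libraries with that of rapamycin in control muscle, and without both replicate 5 libraries 6 members passed. Of 33 other myeloid genes tested, 7 were higher and 3 lower in the same comparison. Of 11 other class II pathway genes 3 were higher and 1 lower, as were 3 and 1 of 10 other chemokine and growth factor genes of monocytes. Of the markers of other cells, 2 of 5 endothelial and 1 of 6 fast fiber markers were lower, and no others passed.

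In 3-month TSCmKO muscle the members that passed after rapamycin were higher, at a share near that of all genes. In 3mTSCmKO+RM against 3mTSCmKO, 4 of the 32 (12.5%) rose and none fell, with 10.6% of all genes higher and 13% lower. The fold changes of 29 members were above 0, with a median of 0.43 against 0.01 for all genes. Cd68 rose most, at 2.04, 3.53, 4.31, 15.1 and 4.15 CPM in 3mTSCmKO+RM (log2 fold change 1.24, SE 0.41, adjusted p = 0.023). Replicate 4 was far above the others, and without it the fold change was 0.49 (adjusted p = 0.38). Mrc1 read 21.6, 10.3, 20.2, 9.73 and 17.1 CPM and 17.7, 24.9, 36.2, 41.6 and 30.8 CPM (log2 fold change 0.94, SE 0.32, adjusted p = 0.026), and overlapped between the groups. Csf1 read 19.9, 15.5, 19.7, 21.4 and 19.7 CPM, above every 3mTSCmKO library (log2 fold change 0.61, SE 0.19, adjusted p = 0.014). Ccl9 was the fourth (log2 fold change 0.91, SE 0.28, adjusted p = 0.015). C1qa read 6.13, 3.85, 8.12, 4.83 and 8.06 CPM and 7.70, 12.6, 12.6, 11.6 and 12.9 CPM and did not pass (log2 fold change 0.88, SE 0.37, adjusted p = 0.081). Csf1r, at 17.9, 9.21, 18.3, 9.12 and 12.5 and 13.1, 19.9, 25.7, 23.1 and 24.5 CPM, H2-Aa, at 21.7, 21.2, 27.5, 19.004 and 20.4 and 16.6, 30.7, 45.5, 14.96 and 27.6 CPM, and Cd74, at 48.2, 46.4, 67.9, 43.9 and 45.02 and 40.4, 71.4, 95.7, 41.02 and 71.3 CPM, overlapped. Adgre1 read 2.18, 4.54, 6.36, 3.96 and 3.97 CPM after rapamycin, and Lyve1 5.07, 2.42, 8.12, 6.49 and 8.92 and 7.60, 14.7, 16.4, 13.5 and 9.43 CPM without passing (log2 fold change 0.97, SE 0.43, adjusted p = 0.099). Lgals3 read 1.58, 2.10, 4.75, 3.06 and 3.14 CPM and did not pass (log2 fold change -0.16, SE 0.26, adjusted p = 0.71). In the same comparison 1 of 5 fibroblast, 1 of 5 mast cell and 2 of 6 fast fiber markers were higher, 2 of 3 B cell and 1 of 3 neutrophil markers were lower and no tendon marker passed, and summed levels in 3mTSCmKO and 3mTSCmKO+RM were 493 to 942 and 761 to 1181 TPM for fibroblast markers and 106 to 330 and 211 to 424 TPM for tendon markers. Their part in the values of the macrophage genes was not tested. Of 33 other myeloid genes tested, 4 were higher and 3 lower, and of 11 other class II pathway genes 1 was higher and 1 lower. The class II pathway list summed to 315 to 477 TPM in 3mTSCmKO and to 234 to 289 TPM in 3mTSCmKO+RM, without overlap.

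**Figure D5:**
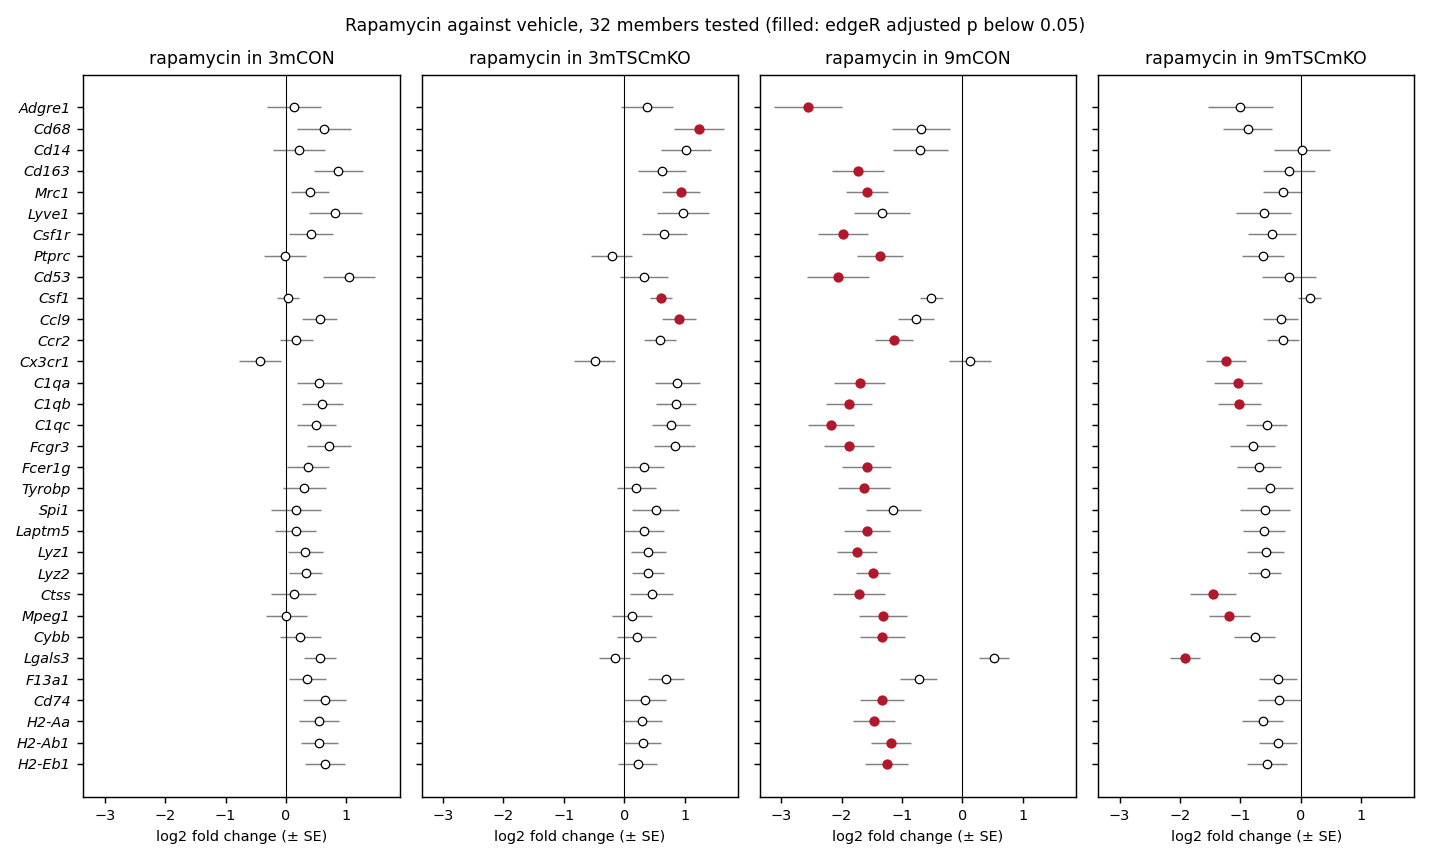
Log2 fold change (x axis, ± SE) of the 32 members tested after rapamycin in each of the 4 vehicle-matched groups. Filled points passed an edgeR adjusted p below 0.05 over all genes. 23 members fell in 9mCON and 6 in 9mTSCmKO, none passed in 3mCON and 4 rose in 3mTSCmKO.

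The added comparison of ages in TSCmKO gave 4 members with a lower response to rapamycin at 9 than at 3 months (Cd68, C1qb, Ctss and Lgals3), with 1.09% of all genes lower and 0.827% higher in that test. Lgals3 differed by -1.76 (SE 0.35, adjusted p = 0.0053). Without 3mTSCmKO replicate 1 the count was 1, and without 3mTSCmKO+RM replicate 4 the difference of Cd68 went from -2.11 to -1.37 (adjusted p = 0.15). At 3 months no member passed as different in its rapamycin response between genotypes (1.36% of all genes higher, 2.09% lower) or between 3mTSCmKO+RM and 3mCON+RM (5.67% higher, 4.36% lower). In both, 1 member was higher at an unadjusted p below 0.05, and DESeq2 called 0 in the first and 1 in the second. The remaining values at 3 months differed in spread from gene to gene. In 3mCON and 3mCON+RM, C1qa read 10.7, 4.55, 5.87, 2.50 and 4.31 and 10.03, 3.74, 6.41, 9.63 and 10.7 CPM, Mrc1 28.4, 14.1, 14.5, 10.9 and 11.8 and 21.2, 10.5, 20.3, 23.9 and 28.6 CPM, and Lyve1 11.3, 5.004, 5.37, 2.35 and 2.20 and 13.1, 5.06, 7.42, 10.03 and 10.5 CPM. In all of these, replicate 1 was the highest of 3mCON and replicate 2 the lowest of 3mCON+RM. H2-Aa read 24.4, 15.4, 25.9, 12.5 and 15.8 and 38.4, 16.004, 25.3, 26.6 and 32.03 CPM, Cd74 62.99, 33.9, 54.8, 27.2 and 45.3 and 90.99, 34.1, 69.1, 65.98 and 89.4 CPM, and Csf1 18.3, 13.6, 14.995, 14.4 and 11.7 and 15.5, 10.3, 15.2, 14.9 and 18.99 CPM. These levels overlapped between treatments. In 3mCON+RM, Lgals3 read 4.33, 3.26, 2.70, 3.59 and 4.03 CPM and Cd68 2.55, 2.70, 2.47, 2.02 and 3.39 CPM, and neither passed.

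Trem2 and Ccl2 rested on few counts in every group at 3 months, and a library listed at 0 allows up to 3 counts (counting error only). Trem2 read 0.504, 0.0910, 0.289, 0.149 and 0.0845 CPM in 3mCON, 0.595, 0.139, 0.112, 0.285 and 0.300 CPM in 3mCON+RM, 0.395, 0, 0.463, 0.576 and 0.432 CPM in 3mTSCmKO and 0.464, 0.336, 0.431, 0.707 and 0.237 CPM in 3mTSCmKO+RM, or 0 to 18 counts. Ccl2 read 0.840, 0.182, 0.537, 0.149 and 0.253 CPM, 0.765, 0.0693, 0, 0.0855 and 0.257 CPM, 0.461, 0.261, 0.257, 0.0960 and 0.108 CPM and 0.232, 0.252, 0.270, 0.785 and 0.474 CPM in the same order, or 0 to 20 counts. The groups overlapped for both genes. In TSCmKO muscle, 3 of the 4 members below the level for testing were higher at 9 than at 3 months with no filter on low counts: Fcgr1 (log2 fold change 1.71, SE 0.49, adjusted p = 0.0092), Trem2 (1.23, SE 0.46, adjusted p = 0.047) and Ccl2 (1.67, SE 0.63, adjusted p = 0.047).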

How the data were processed

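Poly(A) RNA of 40 whole EDL muscles was sequenced, and the authors trimmed reads with Cutadapt 1.9.1 and assigned them with kallisto 0.43.1 to Ensembl transcripts of GRCm38, sharing a read that hit several transcripts evenly. The deposited estimated counts are whole numbers and were used as deposited, and the deposited TPM values served for levels between genes. No value column lacked a sample. Counts were tested with edgeR 4.0.16 (R 4.3.3), with TMM factors, robust quasi-likelihood F-tests, 1 fit of 8 group means and Benjamini-Hochberg adjustment over the 13543 genes at 1 CPM or more in 5 or more libraries. The threshold was an adjusted p of 0.05. Printed CPM are TMM-scaled. The script was tested on simulated data. DESeq2 1.42.0, other scalings, no filter, only the groups compared, insert size, a replicate block and leaving out libraries were the alternatives.

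Members and gene lists were chosen with earlier results of these data known. Values in every library were given for the largest rise and fall among members that passed in each comparison and for Adgre1, Csf1r, Csf1, C1qa, Ccl2, H2-Aa, Cd74, Mrc1, Lyve1, Lgals3, Trem2 and Cd68. Those of Cx3cr1 and Fcgr1 were added after they were seen. Library totals were 8883870 to 35224669 counts, so that members near 1 CPM rest on few reads. By the study text each library was the muscle of a separate animal. Among 80 pairs of replicates counts differed by 10.2 to 146 times the counting variance, so none looked like a repeat deposit of one library.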

Additional observations from a re-analysis of the deposited data

Results flagged for a closer look

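Libraries were compared within each group for the 32 members tested, and in 26 of 256 groups of 5 the highest or the lowest library was set off from the nearest other by a share of the whole range above Dixon's 95% critical value. Chance gives about 1 in 20 such groups where values are normal and independent. The members of a group share the same 5 libraries and CPM were not transformed, so that rate is no yardstick for the 26. In 3mCON, the highest library stood apart for Cd14 (replicate 1, 2.30 CPM), Mrc1 (replicate 1, 28.4 CPM) and Cd53 (replicate 1, 2.35 CPM). In 3mCON+RM, the lowest library stood apart for Ptprc (replicate 2, 2.15 CPM), C1qb (replicate 2, 4.02 CPM) and Fcgr3 (replicate 2, 1.59 CPM). In 3mTSCmKO, the highest library stood apart for Cd14 (replicate 3, 1.75 CPM), Ptprc (replicate 3, 17.8 CPM), Laptm5 (replicate 3, 11.9 CPM), Lgals3 (replicate 4, 4.67 CPM) and Cd74 (replicate 3, 67.9 CPM). In 3mTSCmKO+RM, the highest library stood apart for Cd68 (replicate 4, 15.1 CPM) and Mpeg1 (replicate 3, 9.17 CPM). In 3mTSCmKO+RM, the lowest library stood apart for Csf1 (replicate 2, 15.5 CPM), C1qa (replicate 1, 7.70 CPM) and Cybb (replicate 1, 5.05 CPM). In 9mCON, the highest library stood apart for Adgre1 (replicate 5, 6.30 CPM), Cd163 (replicate 5, 27.1 CPM), Mrc1 (replicate 5, 30.7 CPM), C1qb (replicate 5, 11.8 CPM) and F13a1 (replicate 5, 29.2 CPM). In 9mCON+RM, the highest library stood apart for Tyrobp (replicate 1, 0.878 CPM) and Mpeg1 (replicate 1, 2.50 CPM). In 9mTSCmKO, the highest library stood apart for Lyve1 (replicate 1, 13.8 CPM) and Cx3cr1 (replicate 1, 30.8 CPM). In 9mTSCmKO+RM, the lowest library stood apart for Mpeg1 (replicate 1, 1.25 CPM). Beside 9mCON replicate 5, whose values stood apart for 5 members, its tendon marker sum was 374 TPM and that of the other 4 libraries 52.5 to 101 TPM, and the part of tendon in its values was not tested. In 3mTSCmKO replicate 3, highest for 22 of the 32 members, erythroid markers summed to 28731 TPM (1383 to 2847 TPM in the other 4 libraries), B cell markers to 23.0 TPM (1.74 to 5.32 TPM) and T and NK cell markers to 6.57 TPM (1.78 to 2.57 TPM). In 3mTSCmKO replicate 4, where Lgals3 stood apart, neutrophil markers summed to 129 TPM (3.83 to 25.4 TPM in the others), adipocyte markers to 193 TPM (36.1 to 64.1 TPM) and Schwann cell markers to 212 TPM (60.1 to 102 TPM). In 9mTSCmKO replicate 1, where Lyve1 and Cx3cr1 stood apart, dendritic cell markers summed to 18.1 TPM (7.28 to 8.22 TPM), T and NK cell markers to 7.73 TPM (3.52 to 4.62 TPM) and other chemokines and growth factors of monocytes to 199 TPM (109 to 132 TPM). 3mCON+RM replicate 2 was lowest for 28 of the 32 members. Its fibroblast markers summed to 497 TPM (1073 to 1201 TPM in the other 4 libraries). Its tendon markers summed to 52.1 TPM (330 to 467 TPM) and its mast cell markers to 7.56 TPM (18.4 to 34.4 TPM). In 3mCON replicate 1, highest for 27, the same sums were 1266 TPM (626 to 928 TPM), 563 TPM (90.5 to 457 TPM) and 28.2 TPM (8.28 to 14.5 TPM). The part of these cells in the values of these libraries was not tested.

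Several responses differed between groups by the test of the difference itself (edgeR interaction terms, log2 scale). The genotype effect was larger at 9 than at 3 months for Lgals3 (1.70), and the response to rapamycin at 9 months was lower in TSCmKO than in CON for Lgals3 (-2.44). In CON the response to rapamycin was lower at 9 than at 3 months for Cd163 (-2.60), Mrc1 (-1.98), Csf1r (-2.40), Cd53 (-3.10), C1qa (-2.26), C1qb (-2.48), C1qc (-2.68), Fcgr3 (-2.59), Lyz1 (-2.07), Lyz2 (-1.81), H2-Aa (-2.02), H2-Ab1 (-1.74) and H2-Eb1 (-1.90). In TSCmKO the same held for Cd68 (-2.11), C1qb (-1.87), Ctss (-1.91) and Lgals3 (-1.76). The 2 comparisons of rapamycin response between ages were added after the levels were seen.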

How the results depend on the processing

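Direction did not turn for any member that passed, under any alternative run. With only the groups compared in the fit, 4 members passed for genotype at 9 months (8 in the fit of all groups), 12 for rapamycin in 3mTSCmKO (4) and 2 for the age difference of the rapamycin response in CON (13). With insert size as a term, 5 passed for genotype under rapamycin at 9 months (12) and 1 for age in TSCmKO (5). With no filter on low counts, 6 and 1 passed for the age differences of the rapamycin response in CON and TSCmKO (13 and 4). DESeq2 gave 2 for the genotype by age difference and 3 for the rapamycin by genotype difference at 9 months (1 each), and 1 each for genotype under rapamycin at 3 months and age in CON (0 each). With replicate 5 of 9mCON and of 9mCON+RM both left out, 9 passed for rapamycin in 9mCON (23), 6 for genotype under rapamycin at 9 months (12) and 0 for the age difference in CON (13). The cause was not tested.

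Without single libraries, the count ran from 6 to 8 for genotype at 9 months, 4 to 8 for rapamycin in 9mTSCmKO, 17 to 25 for rapamycin in 9mCON (17 without 9mCON replicate 1 or 9mCON+RM replicate 2), 0 to 1 for genotype at 3 months (1 without 3mCON replicate 1) and 0 to 1 for genotype under rapamycin at 3 months (1 without 3mTSCmKO+RM replicate 1). It was 2 to 6 for rapamycin in 3mTSCmKO, with 2 without 3mTSCmKO replicate 4 or 3mTSCmKO+RM replicate 3 or 4. It was 5 to 14 for genotype under rapamycin at 9 months, with 5 without 9mCON+RM replicate 2 or 5 or 9mTSCmKO+RM replicate 5, and 3 to 7 for age in TSCmKO, with 3 without 9mTSCmKO replicate 2 or 4. The count ran from 1 to 3 for the genotype by age difference, 1 to 2 for the rapamycin by genotype difference at 9 months, 3 to 19 for the age difference of the response in CON (3 without 9mCON replicate 5 or 9mCON+RM replicate 2) and 1 to 7 in TSCmKO.

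Same-numbered replicates were not paired, since in no comparison did all 5 pairs correlate above 0.1. A fit with the replicate number as a block gave 8 members for rapamycin in 3mTSCmKO, 2 for the rapamycin by genotype difference at 9 months, and 7, 5, 24 and 16 for genotype at 9 months, rapamycin in 9mTSCmKO, rapamycin in 9mCON and genotype under rapamycin at 9 months.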
